A study of Mus musculus with 4 samples.

Results

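Pyruvate made by glycolysis can be reduced to lactate and leave the cell, or enter mitochondria and be oxidised, and 10 genes that act at this branch were followed in lung tumours of KP mice. They were chosen by symbol from the 39017 genes of the count table and comprise the lactate dehydrogenase subunits Ldha and Ldhb, the plasma membrane lactate carriers Slc16a1 and Slc16a3 with their chaperone Bsg, the subunits Mpc1 and Mpc2 of the mitochondrial pyruvate carrier, and the pyruvate dehydrogenase kinases Pdk1, Pdk2 and Pdk4. The 4 tumours form a single Control group of male mice on a C57BL6/J background with p53 floxed on both copies. Each mouse received 1500 viral units of a lentivirus in which the Pgk promoter drives Cre, so any infected lung cell could recombine. At 22 weeks and 5 days after virus delivery lung tumours were cut out and made into cell suspensions without a stated sort. From each tumour 1 library of polyadenylated RNA was sequenced. The study's methods name RNA from bulk tumours for some cohorts and from fractions with immune cells removed for others. The labels also call the mice heterozygous fl/wt without naming the gene, the deposited log2 columns read WT, and by the study's methods a control could have intact Slc2a1 alleles or carry a single floxed copy. The age of the mice is not given in the sources used here. Tumour numbers 1 to 4 follow the labels, which do not say whether the tumours came from separate mice. The p-values below therefore apply to these samples only and do not measure a spread between mice.

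Lactate dehydrogenase is a tetramer of the products of Ldha and Ldhb, with Ldha-rich forms known for turning pyruvate into lactate and Ldhb-rich forms for the reverse reaction. Slc16a1 (MCT1) and Slc16a3 (MCT4) carry lactate together with a proton across the plasma membrane, MCT4 being the form typical of strongly glycolytic cells, and Bsg (basigin) brings both to the membrane. Mpc1 and Mpc2 form the carrier that takes pyruvate through the inner mitochondrial membrane, and the Pdk kinases switch off the pyruvate dehydrogenase complex that would turn it into acetyl-CoA.

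Total counts per tumour lay between 8151613 and 8799007. Levels are given as CPM, counts per 1000000 after library sizes were scaled with TMM factors, and the floor of 3 counts lay between 0.330 and 0.370 CPM. All 10 members passed the filter of a mean CPM of at least 1, as did 14225 genes in all. Markers of the labelled tissue were abundant, with Sftpc, a surfactant gene of alveolar type 2 cells, between 17722 and 29617 CPM. In such samples of pooled cells, fewer cells of a type and less RNA per cell cannot be told apart.

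The stretches before the annotated start of Ldha, Slc16a1, Slc16a3 and Pdk2 are shown because these 4 of the 9 members with a promoter window in RefSeq (GRCm38.p6, 250 bases before to 50 after the start) hold the letters ACGTG on either strand. These letters are one form of the core that hypoxia-inducible factors are known to bind, and GCGTG is the other. Both strands were read, so the E-box CACGTG, known as a site of MYC, holds ACGTG on each strand and such matches overlap. Capitals mark ACGTG or its reverse complement CACGT. The sequences run 5′ to 3′ on the strand of the gene, at chr7:46845554-46845803 (plus strand), chr3:104638414-104638663 (plus), chr11:120948817-120949052 (plus) and chr11:95041372-95041621 (minus) in that order, and end at the base before the start except for Slc16a3, where the last 14 bases are left out.
Ldha: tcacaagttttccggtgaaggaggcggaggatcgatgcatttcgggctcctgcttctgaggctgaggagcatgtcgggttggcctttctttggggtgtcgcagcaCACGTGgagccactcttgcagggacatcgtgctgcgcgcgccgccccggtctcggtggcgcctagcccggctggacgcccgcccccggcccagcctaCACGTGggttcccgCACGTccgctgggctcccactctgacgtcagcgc
Slc16a1: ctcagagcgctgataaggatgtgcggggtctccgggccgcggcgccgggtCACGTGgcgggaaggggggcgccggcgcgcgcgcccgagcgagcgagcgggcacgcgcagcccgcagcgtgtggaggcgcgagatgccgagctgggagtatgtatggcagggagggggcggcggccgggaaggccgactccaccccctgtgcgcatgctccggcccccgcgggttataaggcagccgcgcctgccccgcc
Slc16a3: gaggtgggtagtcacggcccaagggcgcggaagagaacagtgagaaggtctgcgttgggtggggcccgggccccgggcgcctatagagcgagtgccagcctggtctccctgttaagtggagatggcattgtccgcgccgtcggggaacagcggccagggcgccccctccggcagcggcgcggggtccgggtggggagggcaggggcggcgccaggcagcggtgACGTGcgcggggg
Pdk2: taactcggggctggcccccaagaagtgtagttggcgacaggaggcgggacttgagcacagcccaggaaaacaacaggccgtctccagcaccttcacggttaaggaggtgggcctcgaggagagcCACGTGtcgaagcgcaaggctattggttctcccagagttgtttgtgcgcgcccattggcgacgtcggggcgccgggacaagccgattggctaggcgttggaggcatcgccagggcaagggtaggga

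Of 32851 windows of 300 bases in the RefSeq table, 19.6% hold ACGTG, 32.4% GCGTG and 7.15% CACGTG. Windows of 7 members hold GCGTG, those of Ldha, Ldhb, Slc16a1, Mpc1, Mpc2, Pdk1 and Pdk4, genes that peaked in different tumours. This counts members, some with several windows, so it is not on the same scale as the 32.4% of windows. The members have 13 windows, of which 4 hold ACGTG, and the windows of Ldha and Pdk2 that do are those shown. That of Ldha holds 3 separate sites, that of Slc16a1 2, that of Slc16a3 2 and that of Pdk2 1. The other site of Slc16a1 begins at position 21 after the start and that of Slc16a3 at -14, both outside the stretches shown. CACGTG occurs in those of Ldha, Slc16a1 and Pdk2. Ldha, Slc16a1 and Slc16a3 were highest in tumour 1, as was Pdk1, which has GCGTG but no ACGTG in its windows. Bsg was also highest in tumour 1, but it is the member without a window, so its letters were not read. Pdk2, which holds ACGTG, was highest in tumour 4. Letters in a window are a description and do not show that a factor binds there.

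Transcripts of the reduction and export side were more abundant in tumour 1 than in the others. Ldha (ENSMUSG00000063229, chromosome 7, 46841475 to 46855627) stood at 2032, 1196, 1449.5 and 1234 CPM in tumours 1 to 4 (mean 1478 ± 386, SD, n = 4). Tumour 1 was 1.57 times the mean of the others, and counting error was small beside this, since the 95% Poisson interval was 2002 to 2061 CPM in tumour 1 and 1423 to 1476 CPM in tumour 3, the next highest. Ldhb (ENSMUSG00000030246, chromosome 6, 142490249 to 142507957) had another order, with 55.3, 134, 86.8 and 75.05 CPM (mean 87.9 ± 33.6, SD, n = 4). Thus tumour 1, the highest for Ldha, was the lowest for Ldhb, and tumour 2, the lowest for Ldha, was the highest for Ldhb.

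Lengths were needed to set these genes side by side, and CPM was divided by the union of annotated exons in kb. Per length Ldha made up 94.6% of the sum of Ldha and Ldhb in tumour 1, with a 95% Wilson interval from 94.1 to 95.01%. In tumour 2 it was 80.8% (79.9 to 81.8%). Tumours 3 and 4 had shares of 88.8% (88.0 to 89.5%) and 88.6% (87.8 to 89.4%). Its mean share was 88.2% ± 5.64 (SD, n = 4). The intervals of tumours 3 and 4 overlap each other, while those of tumours 1 and 2 lie outside them on opposite sides. Intervals cover counting error only, as reads carried no molecular identifiers.

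Slc16a3 had the widest spread of the members. Tumour 1 had 39.6 CPM and the others 13.7, 12.5 and 10.8 CPM (mean 19.2 ± 13.7, SD, n = 4), which rest on 360, 118, 101 and 91 counts. Tumour 1 was 3.21 times the mean of the others, whose own values differed by 1.27-fold and whose Poisson intervals overlap. Slc16a3 (ENSMUSG00000025161) lies on chromosome 11 at 120948480 to 120960868. Slc16a1 (ENSMUSG00000032902, chromosome 3, 104638668 to 104658462) was also highest in tumour 1, at 167 CPM against 103, 77.5 and 107 CPM (mean 113 ± 37.9, SD, n = 4). Tumour 1 was 1.74 times the mean of the others here, and tumour 3 was the lowest.

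Bsg (ENSMUSG00000023175, chromosome 10, 79704491 to 79711969) moved little. It stood at 847, 736, 752 and 672 CPM (mean 752 ± 72.1, SD, n = 4), a range of 1.26-fold. Bsg was again highest in tumour 1, by 1.18 times the mean of the others. Slc16a3 took 16.5% of the sum of both carriers per length in tumour 1, with a 95% Wilson interval from 14.98 to 18.1%. The shares in tumours 2, 3 and 4 were 9.98% (8.38 to 11.8%), 11.8% (9.79 to 14.2%) and 7.79% (6.38 to 9.49%). The mean share was 11.5% ± 3.70 (SD, n = 4), so Slc16a1 was the more abundant lactate carrier transcript in every tumour.

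**Figure D1:**
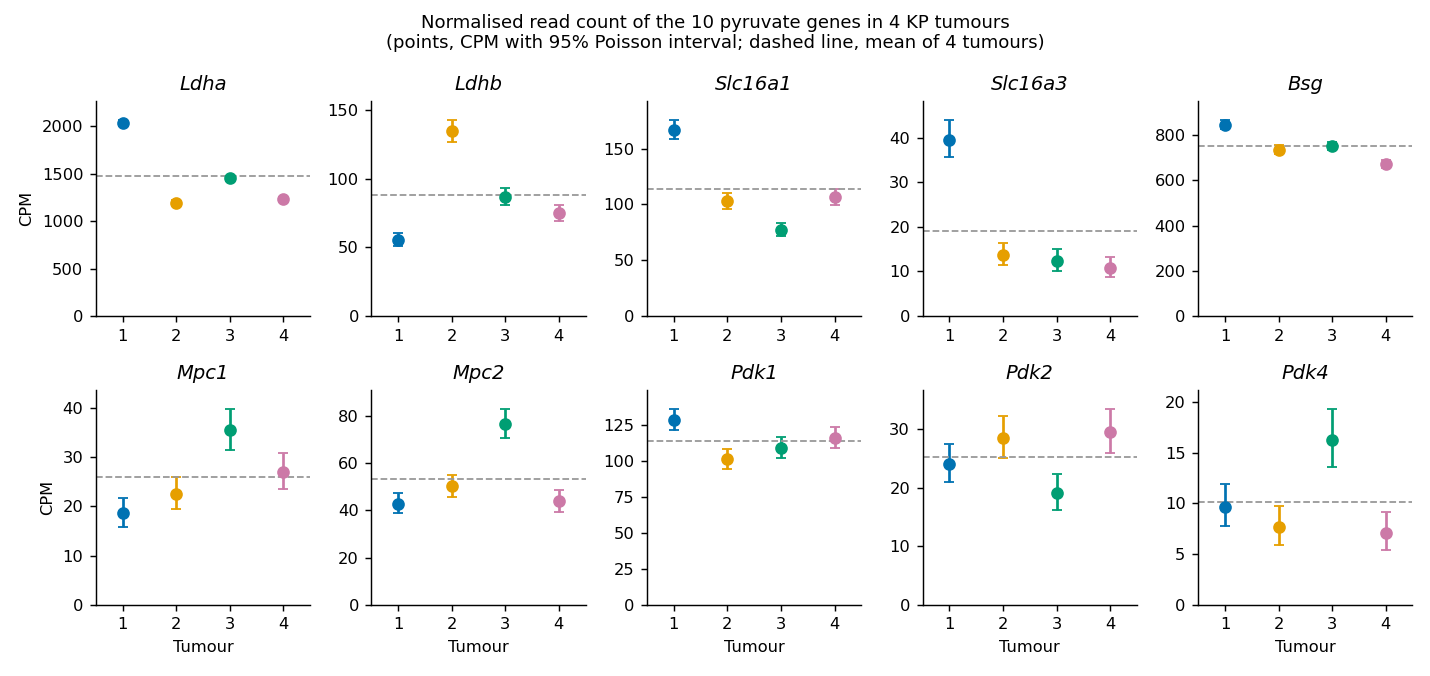
CPM (y axis, from 0 in each panel) of the 10 members in tumours 1 to 4 (x axis), with 95% Poisson intervals of the counts and a dashed line at the mean of the 4 tumours. Ldha, Slc16a1, Slc16a3, Bsg and Pdk1 peak in tumour 1, Ldhb in tumour 2, Mpc1, Mpc2 and Pdk4 in tumour 3 and Pdk2 in tumour 4.

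The mitochondrial pyruvate carrier was highest in tumour 3 and lowest in tumour 1. Mpc1 (ENSMUSG00000023861, chromosome 17, 8282904 to 8297661) had 18.6, 22.5, 35.4 and 27.0 CPM (mean 25.9 ± 7.22, SD, n = 4). Mpc2 (ENSMUSG00000026568, chromosome 1, 165460637 to 165481214) had 42.9, 50.2, 76.6 and 43.8 CPM (mean 53.4 ± 15.8, SD, n = 4). For Mpc2 tumour 3 was 1.68 times the mean of the others, and tumours 1 and 4 lay within each other's counting intervals. Those of Mpc1 in tumours 1 and 2 overlap, at 15.9 to 21.6 and 19.5 to 25.9 CPM. The lowest place of tumour 1 is thus not separated from counting error for either subunit.

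The kinases did not move together. Pdk1 (ENSMUSG00000006494, chromosome 2, 71873224 to 71903858), a kinase known as a hypoxia target, had 129, 101, 109 and 116 CPM (mean 114 ± 11.5, SD, n = 4), with tumour 1 highest and a range of 1.27-fold. Pdk2 (ENSMUSG00000038967, chromosome 11, 95026258 to 95041354), the widely expressed form, had 24.0, 28.5, 19.1 and 29.5 CPM (mean 25.3 ± 4.74, SD, n = 4). Tumours 2 and 4 were the highest for Pdk2 and their intervals overlap, and tumour 3 was the lowest. Pdk4 (ENSMUSG00000019577, chromosome 6, 5483351 to 5496309), a form induced by fasting and fatty acids, was the scarcest member at 9.68, 7.67, 16.3 and 7.14 CPM (mean 10.2 ± 4.21, SD, n = 4), which rest on 88, 66, 132 and 60 counts. Pdk4 was highest in tumour 3, with 2.00 times the mean of the others, and the other 3 tumours overlap in their counting intervals.

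Against counting noise, each gene's 4 counts were compared with Poisson expectations proportional to library size (chi-square test, 3 degrees of freedom, Benjamini-Hochberg adjustment over 14225 genes). All 10 members passed an adjusted p of 0.05, beside 76.7% of all genes tested, so spread beyond counting noise is common in these tumours. The adjusted p was 0.00012 for Pdk2, the highest among the members, 2.33e-06 for Pdk1 and 6.36e-09 for Pdk4, and for Ldha, with a chi-square of 2672, it was too small to be written as a number. Without tumour 3 the call was lost for Mpc2, Pdk2 and Pdk4, and without tumour 1 for Slc16a3, while 62.4% and 62.3% of all genes then passed.

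Of the 10 members, 5 were highest in tumour 1, beside 31.4% of all genes tested, 1 in tumour 2 (20.4% of all genes), 3 in tumour 3 (30.1%) and 1 in tumour 4 (18.0%). Tumour 1 reached at least 1.5 times the mean of the others for 3 members, Ldha, Slc16a1 and Slc16a3, beside 11.1% of all genes. No member had a tumour apart by the Dixon ratio, which divides the gap between a tumour and its nearest neighbour by the full range of log2 CPM, beside 5.86% of all genes at the same 95% limit. The ratio of Slc16a3 was the highest of the members, 0.818, and it passed when total counts replaced TMM sizes.

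The SD of log2 CPM over the tumours ranked Slc16a3 first among the members, with 0.85, at rank 395 of the 10269 genes that reached 10 CPM on average. Pdk4 followed with 0.54 (rank 1150), Ldhb with 0.53 (rank 1172) and Slc16a1 with 0.46 (rank 1629). Mpc1, Mpc2 and Ldha had 0.39, 0.39 and 0.35, and Pdk2 had 0.28. At the other end Pdk1 and Bsg had 0.14 each, at ranks 8256 and 8474. The median was 0.39 over the members and 0.25 over those 10269 genes, and 8 of 10 members lay above the latter. edgeR's gene-wise biological coefficient of variation was 48.0% for Slc16a3 and 17.6% for Pdk1, against a common value of 30.8%. Leaving out the tumour farthest from a member's mean lowers its SD by construction, so the values that follow are a description only. Without tumour 1 the SD of log2 CPM was 0.17 for Slc16a3, 0.15 for Ldha, 0.25 for Slc16a1 and 0.087 for Bsg. Without tumour 2 it was 0.33 for Ldhb, and without tumour 3 it was 0.12 for Mpc2, 0.16 for Pdk2 and 0.23 for Pdk4.

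**Figure D2:**
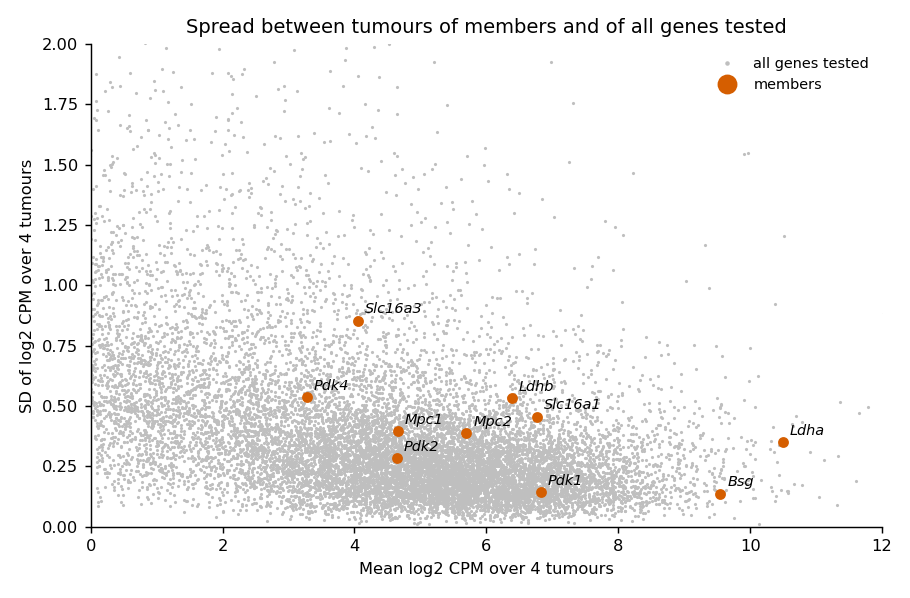
SD of log2 CPM over the 4 tumours (y axis) against mean log2 CPM (x axis) for all genes tested (grey) and the 10 members (orange). Slc16a3 stands highest among the members at 0.85 and Bsg and Pdk1 lowest at 0.14. 184 genes with an SD above the upper limit of the y axis and 190 genes outside the x axis are not drawn.

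Per kb of exon union Ldha and Bsg were far more abundant than the rest. Ldha had 614, 361, 438 and 373 CPM per kb (mean 446 ± 117, SD, n = 4) and Bsg 467, 406, 415 and 370 (mean 414 ± 39.7). Their mean log2 difference was 0.079 ± 0.24 (SD, n = 4), with Ldha above Bsg in 3 of 4 tumours. This difference was smaller than its spread, but with the longest protein-coding transcripts as lengths it was 0.70 ± 0.24 and Ldha was higher in 4 of 4 tumours. Ldhb came next with 56.0 ± 21.4 CPM per kb and then Slc16a1 with 25.6 ± 8.55. Pdk1 (14.6 ± 1.48 CPM per kb), Mpc1 (12.4 ± 3.47), Pdk2 (7.99 ± 1.499) and Mpc2 (7.27 ± 2.16) followed, and Slc16a3 (3.60 ± 2.57) and Pdk4 (2.90 ± 1.20) were lowest. Of the 9 pairs of neighbours in this order, 6 changed places in at least 1 tumour. These are Ldha and Bsg, Ldhb and Slc16a1, Pdk1 and Mpc1, Pdk2 and Mpc2, Mpc2 and Slc16a3, and Slc16a3 and Pdk4.

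This order holds for the union of exons only. By the longest protein-coding transcript it was Ldha, Bsg, Ldhb, Mpc2, Mpc1, Slc16a1, Pdk1, Pdk2, Slc16a3 and Pdk4, and 4 pairs of neighbours changed places in at least 1 tumour. Mpc1 thus stood at 26.9 CPM per kb, next to Slc16a1 at 25.6 and Pdk1 at 22.0 CPM per kb, and the mean of Pdk1 minus Mpc1 went from 0.27 to -0.26 on the log2 scale. Mpc2 moved most. The union of its exons is 7344 nt, its longest annotated transcript 4015 nt and its longest protein-coding transcript 1025 nt. By the last of these Mpc2 had 52.1 ± 15.5 CPM per kb (SD, n = 4), against 26.9 ± 7.51 for Mpc1. Which Mpc2 transcript the tumours used cannot be read from counts per gene.

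**Figure D3:**
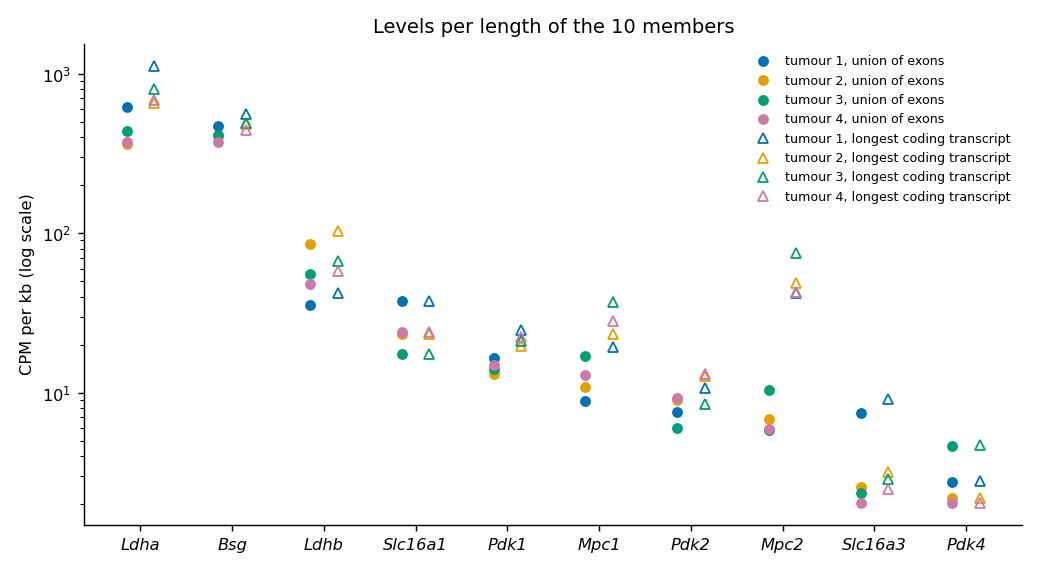
CPM per kb (y axis, log scale) of the 10 members, ordered by mean, in tumours 1 to 4 (colours), with the union of exons (filled circles) or the longest coding transcript (open triangles) as length. Ldha and Bsg stand above the other members with either length, and Mpc2 moves most between them, from a mean of 7.27 to 52.1 CPM per kb.

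Differences of log2 CPM per kb were then taken within each tumour for 10 pairs of members that share a step or stand on opposite sides of the branch. In every pair the same gene was higher in 4 of 4 tumours, and the exact permutation test that flips the signs of the 4 differences (two-sided) gave p = 0.125, or 0.125 after adjustment over the 10 pairs. This is its lower limit with 4 tumours, so no pair could pass 0.05 by this test. Ldha exceeded Ldhb by 4.12, 2.08, 2.99 and 2.96 in tumours 1 to 4 (mean 3.04 ± 0.84, SD, n = 4), a mean of 8.20-fold that became 12.4-fold with the longest transcripts as lengths. The excess over Ldhb was largest in tumour 1 and smallest in tumour 2.

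Bsg exceeded Slc16a1 by 3.63, 4.13, 4.56 and 3.94 (mean 4.07 ± 0.39, SD, n = 4). Its excess over Slc16a3 was 5.97 in tumour 1 and 7.29, 7.46 and 7.50 in the others (mean 7.06 ± 0.73). The chaperone transcript thus exceeded each carrier everywhere, and least in tumour 1. Slc16a3 minus Slc16a1 was -2.34, -3.17, -2.90 and -3.56 (mean -2.99 ± 0.51).

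Ldha exceeded Mpc1 by 6.10 in tumour 1 and by 5.06, 4.68 and 4.84 in tumours 2 to 4 (mean 5.17 ± 0.64, SD, n = 4). It exceeded Mpc2 by 6.71, 5.72, 5.39 and 5.97 (mean 5.95 ± 0.56), a mean that was 3.97 with the longest coding transcripts as lengths. The gap between the lactate-forming subunit and the mitochondrial carrier was therefore widest in tumour 1 and narrowest in tumour 3 for both carrier subunits. Mpc1 exceeded Mpc2 by 0.61, 0.67, 0.71 and 1.12 (mean 0.78 ± 0.23), but with the longest coding transcripts as lengths the mean was -0.95 and Mpc2 was higher in 4 of 4 tumours.

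Among the kinases, Pdk1 exceeded Pdk2 by 1.12, 0.53, 1.21 and 0.68 (mean 0.89 ± 0.33, SD, n = 4). It exceeded Pdk4 by 2.58, 2.57, 1.59 and 2.86 (mean 2.40 ± 0.55). The excess of Pdk2 over Pdk4 ranged most, from 0.38 in tumour 3, where Pdk2 was lowest and Pdk4 highest, to 2.19 in tumour 4 (mean 1.51 ± 0.82).

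**Figure D4:**
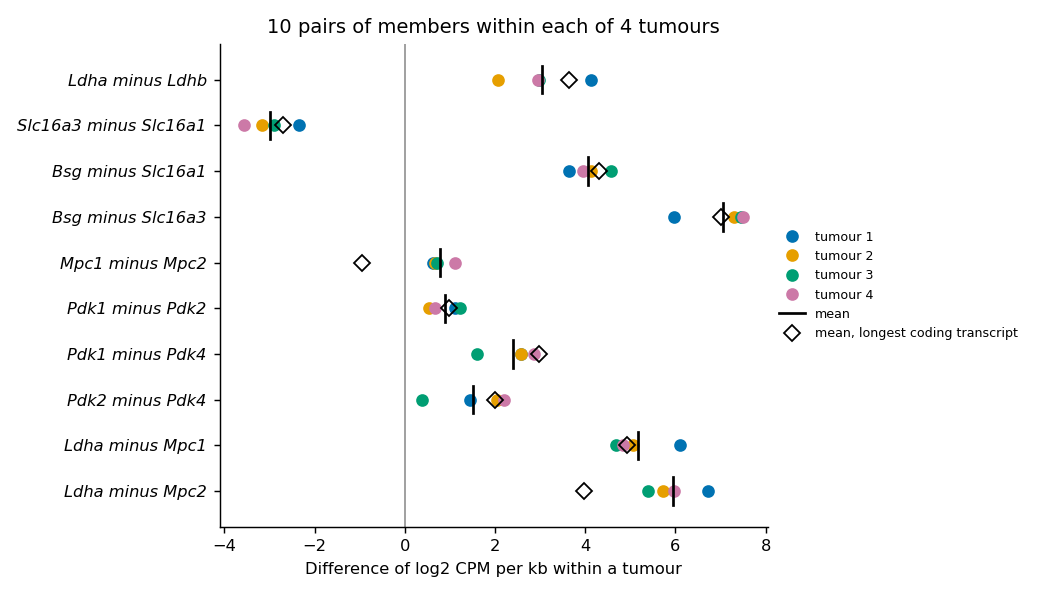
Difference of log2 CPM per kb within each tumour (x axis) for 10 pairs of members (y axis), with tumours 1 to 4 as coloured points, their mean as a black bar, and the mean with the longest coding transcript as length as an open diamond. Every pair keeps its sign in 4 of 4 tumours with the union of exons, and Mpc1 minus Mpc2 changes sign with the coding length, from 0.78 to -0.95.

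The genes around the branch were described from lists chosen with earlier results of these data known. Upstream, 13 of 13 glycolysis genes varied beyond counting noise, beside 76.7% of all genes tested, and 10 of 13 were highest in tumour 1, beside 31.4% of all genes. Pkm, which makes pyruvate, had 1538, 1031, 809.8 and 661 CPM, and Aldoa, the aldolase, had 1172, 609, 685 and 661 CPM. Gapdh had 678, 207, 564 and 416 CPM, highest in tumour 1 and lowest in tumour 2, like Ldha. The exceptions to the peak in tumour 1 were Hk1 (highest in tumour 3), Hk2 (tumour 2) and Pfkm (tumour 4).

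On the mitochondrial side, 4 of 5 genes of the pyruvate dehydrogenase complex varied beyond counting noise, beside 76.7% of all genes tested. None was highest in tumour 1, beside 31.4% of all genes. Their spread was small, with a median SD of log2 CPM of 0.17. Pdha1, the catalytic subunit that the kinases act on, had 226, 284, 286 and 244 CPM. The other regulators were Pdk3, a further kinase, with 51.1, 44.5, 50.8 and 42.8 CPM, and the phosphatase genes Pdp1 and Pdp2 with Pdpr, a regulatory subunit. All 4 varied beyond counting noise, a call made for 76.7% of all genes tested. Pdp1 had 40.4 CPM in tumour 3 against 22.0 to 27.1 and Pdpr 47.6 against 22.4 to 28.6 CPM, whereas Pdp2 was lowest there at 4.20 CPM.

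Other users of pyruvate were Pcx, pyruvate carboxylase, and the alanine transaminases Gpt and Gpt2. All 3 had their highest CPM in tumour 3, beside 30.1% of all genes tested. Pcx and Gpt2 varied beyond counting noise, beside 76.7% of all genes. Pcx had 35.0, 45.4, 66.0 and 34.7 CPM and Gpt2 26.5, 45.5, 53.6 and 38.8 CPM. Of the other lactate dehydrogenase genes, Ldhd, the mitochondrial D-lactate dehydrogenase, had 11.8, 22.9, 21.6 and 17.6 CPM, and Ldhc, the testis form, was at or under 3 counts in all 4 tumours.

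Among other monocarboxylate carriers and partners, Slc16a7 (MCT2) had 12.9, 30.5, 28.5 and 13.7 CPM. Emb (embigin), the partner that can take the place of Bsg, had 137, 149, 409 and 119 CPM. Emb thus peaked in tumour 3 and not in tumour 1, unlike Bsg. Slc16a8, Slc5a8 and Slc5a12 were at or under the floor of 3 counts in every tumour.

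Markers of other cells moved with the same tumours. The 5 pan-leukocyte markers were all highest in tumour 3, where Mpc1, Mpc2, Pdk4 and Emb peaked, with a summed level of 269 CPM against 114 to 156 in the others. The 5 alveolar macrophage markers were also all highest there (961 against 196 to 467 CPM), as were 4 of 6 macrophage markers (285 against 191 to 213 CPM). The other macrophage markers, C1qa and C1qb, were lowest there, at 25.7 and 36.8 CPM. Of all genes tested, 30.1% were highest in tumour 3. The mean log2 CPM of the endothelial, fibroblast, alveolar type 1 and club lists was also highest in tumour 3. So was that of the ciliated, neutrophil, T cell, plasma cell and red blood cell lists. The peak in tumour 3 was thus not particular to immune cell markers. In tumour 1, where Ldha, Slc16a1, Slc16a3, Bsg and Pdk1 peaked, 3 of 4 epithelial markers (summed 3972 against 2488 to 2632 CPM) and 5 of 6 proliferation markers (576 against 379 to 464 CPM) were highest. Cdh1, the other epithelial marker, was lowest there at 842 CPM, though it reached only 887 CPM elsewhere. Of all genes tested, 31.4% were highest in tumour 1. The 7 alveolar type 2 markers summed to 31380.0 CPM there against 51106 to 58401 CPM. Of these, Sftpb and Abca3 were lowest in tumour 3, at 6601 and 759 CPM, against 8261 and 876 CPM in tumour 1. The 4 club cell markers summed to 87.3 CPM in tumour 1 against 573 to 959 CPM. Among them Aldh1a1 was lowest in tumour 2, at 43.7 CPM against 50.8 CPM in tumour 1. The 5 fibroblast markers were split, 3 highest in tumour 1 and 2 in tumour 3, with Col1a1 at 125.1 CPM in tumour 1 against 32.2 to 66.9 CPM. None of the defining markers of these lists was at 0. Their part in the members' differences was not tested.

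**Figure D5:**
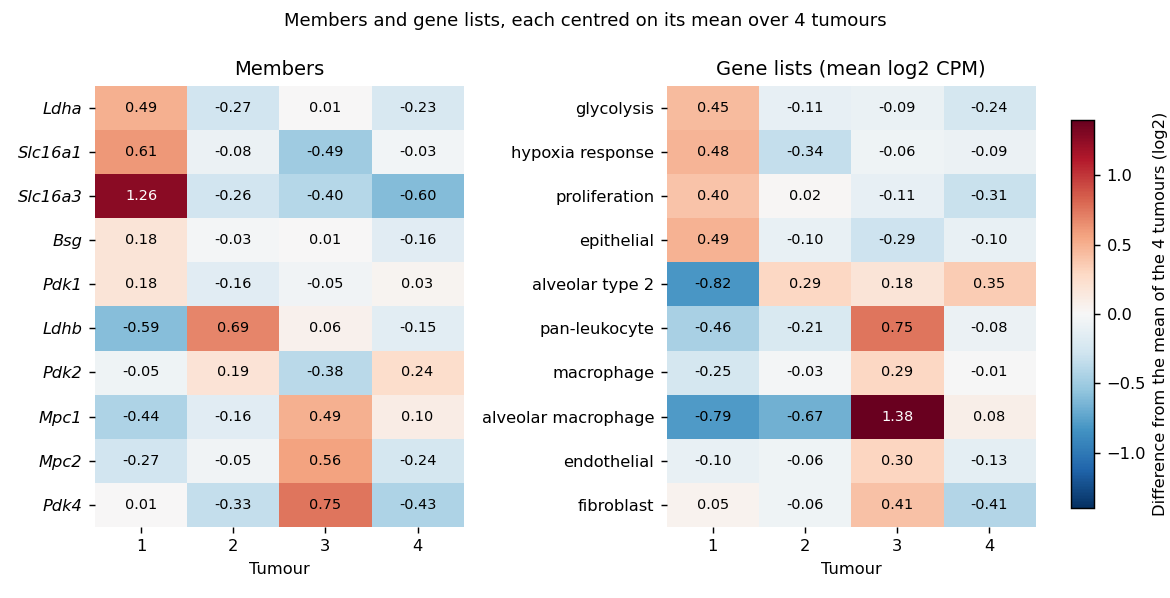
Log2 CPM of the 10 members (left) and mean log2 CPM of 10 gene lists (right) in tumours 1 to 4 (columns), each minus its own mean over the 4 tumours, on a colour scale in log2 units with red for higher. Slc16a3 is highest in tumour 1, together with the glycolysis, hypoxia response, proliferation and epithelial lists. Mpc1, Mpc2 and Pdk4 are highest in tumour 3, together with the leukocyte, both macrophage, the endothelial and the fibroblast lists.

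The genes with a pattern most like that of Ldha were found by the root mean square distance of centred log2 CPM over the 4 tumours, among 10269 genes. The nearest was Ldha-ps2, an annotated processed pseudogene that shares a stretch of 244 nt with Ldha at 98.8% identity (distance 0.015), followed by Gm6493 (0.024), Rad9a (0.035), Dnpep (0.042) and Bax (0.046). Among the members Bsg was the closest to Ldha at 0.20 (rank 799), then Pdk1 at 0.21 (rank 924), and Ldhb the farthest at 0.73 (rank 9605). For Slc16a3 the nearest genes were St8sia4 (0.13), Hist1h1c (0.15), Tubb2b (0.16), Pfkp (0.18), a phosphofructokinase of the glycolysis list, and Evl (0.19). Pfkp had 131, 64.0, 46.4 and 45.2 CPM in tumours 1 to 4, against 39.6, 13.7, 12.5 and 10.8 CPM for Slc16a3. With 4 tumours, many genes share such a pattern.

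Some counts are uncertain because other genes carry nearly the same sequence. Ldha-ps2 held 465, 263, 292 and 264 counts, against 18463, 10292, 11746 and 10378 for Ldha, and how reads of the shared stretch were split between them is uncertain. Mpc1 has a processed pseudogene, Mpc1-ps, with 53, 27, 53 and 34 counts against 169, 194, 287 and 227, and 22.8% of the 85-nt words of its longest transcript occur in another gene. Its exons also overlap 480 nt of 4930506C21Rik on the opposite strand, which had at most 2 counts, and whether counting used the strand is not given in the sources used here. For Ldhb 13.6% of words occur in another gene, and its near-identical pseudogene Gm5514 had at most 5 counts. Cflar and Oscp1 share short stretches with Pdk4, as Rad51c and Rnf103 do with Ldha. The longest transcripts of Bsg, Slc16a1, Slc16a3, Mpc2, Pdk1 and Pdk2 share no such word with another gene.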

How the data were processed

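RNA of 4 Control lung tumours (500 ng each) was sequenced by the authors as single-end reads of 85 nt from a stranded polyadenylated RNA kit. Per the labels' processing notes they used bcl2fastq 2.17, cutadapt 1.4.2, HISAT2, featureCounts 1.4.4, edgeR and build mm10. The strand setting and annotation release are not given in the sources used here. The deposited tables hold raw counts per gene, equal in the combined and single-tumour files for 156068 of 156068 values, and log2 normalised counts that the authors made with TMM and voom, used here only as an alternative.

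CPM was computed from the counts with TMM factors (edgeR 4.0.16, R 4.3.3), and log2 CPM with 0.5 added to counts and 1 to effective sizes. Gene positions, lengths and copies (BLAST 2.17.0, stretches of at least 80 nt at 97% identity) came from GENCODE M21 on GRCm38, which held 37607 of 39017 identifiers. Tests were tried on simulated data. Spread was tested in Python 3.11.15 with scipy 1.17.1. The members, the 28 gene and marker lists (142 of 143 entries matched, 4 by identifier) and the pairs were chosen with earlier results of these data known. Named genes were the members, those lists, the 5 genes nearest in pattern to Ldha and to the member with the largest SD, and near-identical copies. Alternatives were DESeq2 1.42.0 size factors, total counts, other filters, 2 added to counts, other lengths and leaving out each tumour. A further allele of the model is not reported here.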

Additional observations from a re-analysis of the deposited data

Results flagged for a closer look

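Of 47 results checked for a tumour far from the others (members, pair differences, shares and list means), 3 passed the 95% limit, where chance gives about 1 in 20, or 2.35. The log2 difference of Bsg minus Slc16a3 per kb was 5.97 in tumour 1, far below the 7.29 to 7.50 of the others. The mean log2 CPM of the alveolar type 2 list was 10.80 in tumour 1, far below 11.80 to 11.98 in the others. The mean log2 CPM of the endothelial list was 5.21 in tumour 3, far above 4.78 to 4.85 in the others.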

How the results depend on the processing

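The number of members that varied beyond counting noise was 10 with DESeq2 size factors, total counts, no filter and a mean CPM of at least 10, beside 76.6%, 77.3%, 53.5% and 85.3% of all genes. It was 7 to 10 when a tumour was left out, beside 62.3 to 71.9% of all genes. The number with a tumour apart moved from 0 to 1 (Slc16a3) with total counts as library sizes, and stayed at 0 with DESeq2 size factors, 2 added to each count and the deposited log2 values. The mean of Mpc1 minus Mpc2 changed sign to -1.04 without division by length and, in an alternative chosen after seeing the data, to -0.95 with the longest coding transcripts (Mpc1 961 nt, Mpc2 1025 nt, against unions of 2082 and 7344 nt). The other 9 pair means kept their sign under these settings and with the longest transcript, 2 added, the deposited values, pseudogene copies added and each tumour left out. Lengths moved their size: without division by length Ldha exceeded Ldhb 17.3-fold, Mpc1 57.3-fold and Mpc2 27.8-fold, Bsg exceeded Slc16a1 6.86-fold and Slc16a3 45.4-fold, and Pdk1 exceeded Pdk2 4.54-fold and Pdk4 11.7-fold. The mean share of Ldha was 94.0% without division by length, and 86.1 to 90.7% when a tumour was left out, and that of Slc16a3 9.86 to 12.8%. Leaving out a tumour gave 2.67 to 3.36 for Ldha minus Ldhb, -3.21 to -2.80 for Slc16a3 minus Slc16a1 and 0.66 to 0.83 for Mpc1 minus Mpc2. The Dixon ratio was not run with a tumour left out. Members were paired within each tumour, but no pairing of tumours between groups was possible because the tumours form 1 group. With 4 tumours, the sign-flip test could not pass 0.05, and differences under the counting intervals were not detectable at this depth.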

Other observations

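Of the regulators known to act on these genes, 8 of 8 varied beyond counting noise, beside 76.7% of all genes, and they did not share a peak. Myc had 32.9, 17.5, 18.6 and 26.4 CPM in tumours 1 to 4, highest in tumour 1. Esrra with 23.0, 16.0, 16.0 and 15.3 CPM and Ppard with 34.3, 31.1, 23.0 and 22.8 CPM were also highest there. Ppara had 1.32, 2.90, 1.97 and 3.69 CPM, highest in tumour 4, on 12, 25, 16 and 31 counts. Hif1a, the hypoxia-inducible subunit, had 411, 321, 459 and 281 CPM, highest in tumour 3, and Epas1 199, 276, 268 and 248 CPM, lowest in tumour 1. Ppargc1a, a coactivator of mitochondrial genes, had 4.62, 21.3, 14.6 and 13.2 CPM, lowest in tumour 1, and Foxo1, known as a regulator of Pdk4, had 53.4, 68.2, 44.3 and 71.7 CPM, lowest in tumour 3 where Pdk4 was highest.

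Of 8 hypoxia response genes, 8 varied beyond counting noise (76.7% of all genes) and 5 were highest in tumour 1, beside 31.4% of all genes. Ndrg1 had 337, 163, 116 and 211 CPM. Car9, the carbonic anhydrase of hypoxic cells, had 5.28, 2.56, 1.60 and 0.714 CPM, which rest on 48, 22, 13 and 6 counts. Vegfa, also highest in tumour 1, was nearly level in tumours 1 and 3, at 454 and 452 CPM. P4ha1, highest in tumour 3, and Ankrd37 and Adm, highest in tumour 4, were the exceptions. The glucose transporter Slc2a1 had its highest CPM in tumour 1, and Slc2a3 was high in both tumours 1 and 3, at 312 and 456 CPM against 25.6 and 70.6 CPM in tumours 2 and 4.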
